A study of Nitraria sibirica with 9 samples.

Results

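This account covers 17 clusters of leaf RNA from Nitraria sibirica, a salt-tolerant shrub, whose level was higher at each successive NaCl concentration. They were taken from a deposited table of 31628 clusters and were selected on their FPKM in all 9 libraries. FPKM is a read level divided by library total and by a cluster length, which for the 17 was shorter than the deposited one. A cluster was kept when its highest 0 mM library lay below its lowest 100 mM library and its highest 100 mM library below its lowest 400 mM library. In addition, its mean FPKM over all libraries had to be under 500 and the log2 ratio of the 400 mM mean to the 100 mM mean at least 0.5. The same values serve to describe them, so their course over the salt levels is given as a description and no test of salt on them is independent of the choice.

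The plants were greenhouse seedlings given NaCl at 0, 100 or 400 mM, with leaves taken after 3 days of treatment and 3 libraries per level. Salt was increased by 50 mM a day, with starting days set so that both levels were reached together, and the 400 mM plants had therefore received salt for longer. No genotype, seedling age or pooling is stated in the labels, and it is not said whether replicates were separate plants. Any p-value thus measures only the spread between these libraries, which may be technical. The libraries held between 16502576 and 23932857 estimated read counts. Library 1 of 400 mM stood lowest of its level in 11 of the 17 clusters, whereas it was lowest in 32.5% of all clusters of the table. Library 3 of 400 mM was lowest in 1 of the 17 and in 38.2% of the table, and library 2 of 0 mM was highest of its level in 11 of the 17 and in 35.0% of the table.

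Plants of saline soils keep growing in part by moving sodium into vacuoles and by building up small compatible solutes such as proline in the cytoplasm. Their leaves also respond to the osmotic side of salt, in which the hormone abscisic acid, protective proteins and enzymes that remove reactive oxygen are known to take part. Which of these roles the 17 clusters hold cannot be said here, because the files pair no cluster name with a gene name, a protein or a sequence. For the same reason the leaf identity of the samples could not be checked against marker genes. Only a pair of clusters is named below, and the others are called by their length in bases, which differs for each of the 17.

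Strict separation in the order of rising salt was rare in the table. It was found in 39 of 31628 clusters (0.123%). The whole rule held in 17 (0.0537%), as 22 fell short of the second-step ratio and 0 had a mean FPKM of 500 or more. The opposite course, with 400 mM below 100 mM below 0 mM, held in 101 clusters (0.319%). A separated rise that peaked at 100 mM and was intermediate at 400 mM held in 219 clusters (0.692%), and the reverse of that, lowest at 100 mM and intermediate at 400 mM, in 237 (0.749%). With 0 mM in the middle, 56 clusters (0.177%) were highest at 400 mM and 20 (0.0632%) were highest at 100 mM. The stepwise rise was therefore the second least frequent of the 6 possible orders. For single comparisons, 400 mM lay wholly above 0 mM in 9.67% of clusters, 100 mM above 0 mM in 9.66% and 400 mM above 100 mM in 9.89%.

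The median of the 17 clusters was 2.58-fold higher at 400 mM than at 0 mM, with a range from 1.59-fold to 10.1-fold. Over the whole table the same median ratio was 0.905. At 100 mM the 17 clusters had a median of 1.67 times the 0 mM mean (range 1.09 to 5.64), and the table had 0.864. Between 400 and 100 mM the median was 1.59-fold (range 1.43 to 2.00), and 1.04 in the table. In RNA of whole leaves, more cells of one kind and more RNA per cell cannot be told apart. Summed over the 17 clusters, the 0 mM libraries averaged 293 FPKM ± 27.4, the 100 mM libraries 441 FPKM ± 40.2 and the 400 mM libraries 704 FPKM ± 35.6 (SD over 3 libraries). The choice of the clusters required these sums to rise. The 843-base cluster alone gave 115 FPKM of the sum at 0 mM and 217 FPKM at 400 mM.

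**Figure D1:**
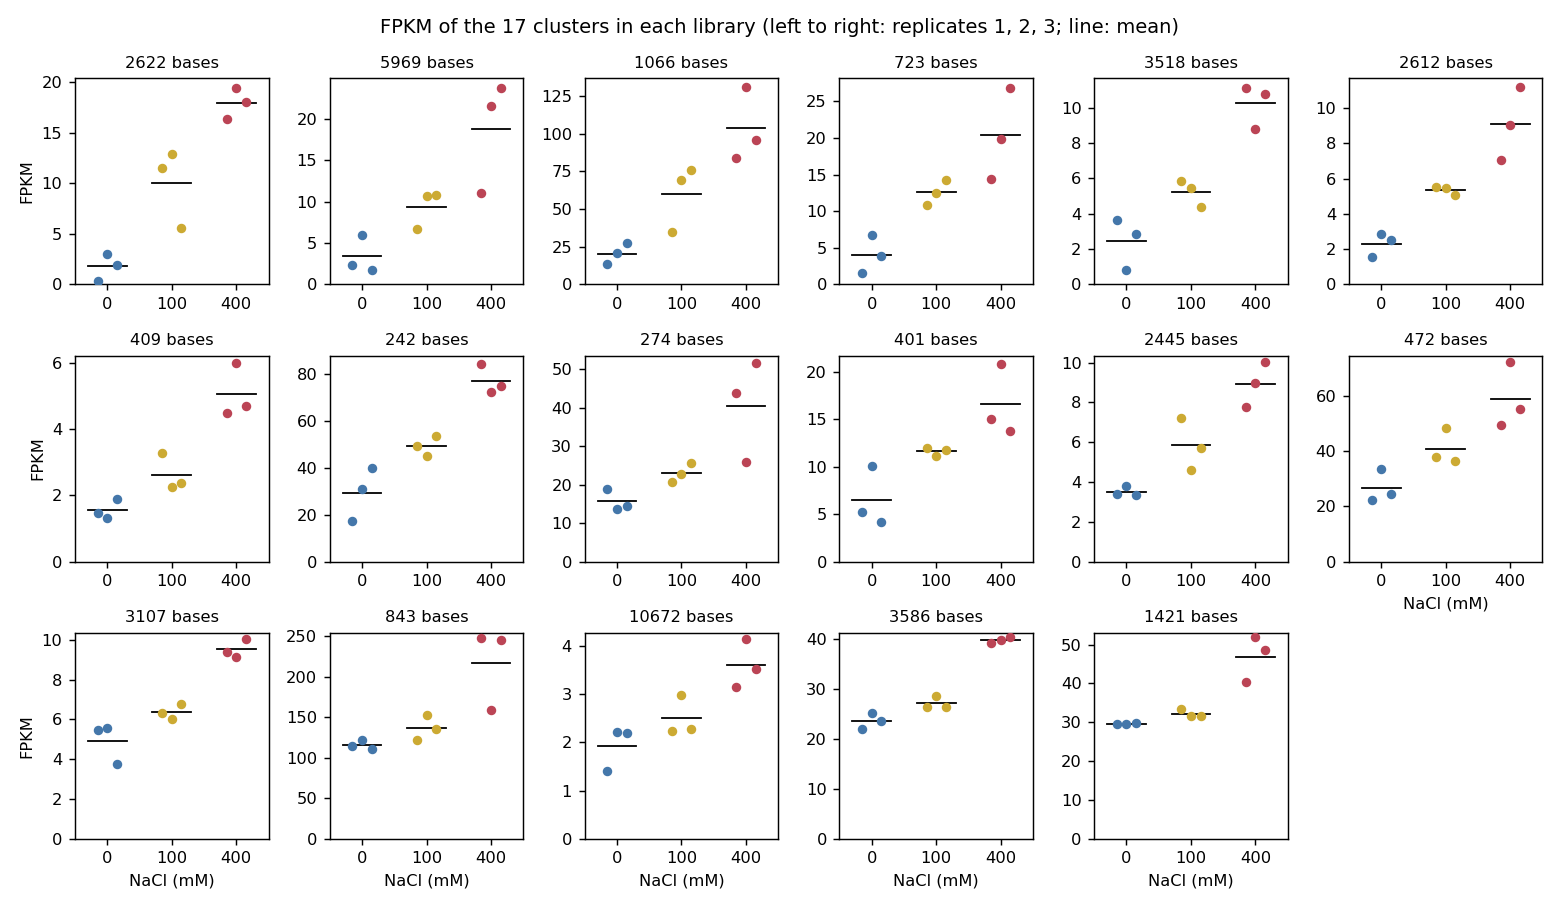
FPKM (vertical axes, each from 0) of the 17 clusters at 0, 100 and 400 mM NaCl, one panel per cluster titled by its length, in order of falling 400 mM to 0 mM ratio. Points are libraries, with replicates 1 to 3 from left to right, and lines are means; the 3 levels do not overlap in any panel, which the choice required.

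At the head of the list, 5 clusters stood at least 4-fold higher at 400 mM than at 0 mM. The largest ratio belonged to Cluster-23439.62881, which is 2622 bases long. It had 0.36, 3.04 and 1.91 FPKM at 0 mM, 11.46, 12.92 and 5.57 FPKM at 100 mM, and 16.34, 19.39 and 18.04 FPKM at 400 mM. The 0 mM libraries were low and far apart, and the third 100 mM library lay between them and the rest. Its 400 mM libraries averaged 17.9 FPKM ± 1.53 and its 0 mM libraries 1.77 FPKM ± 1.35 (SD over 3 libraries), a 10.1-fold ratio. Most of its log2 rise came before 100 mM, as the second step made up 25.3% of it. The first of its 0 mM libraries rested on 14 read counts, and its 400 mM libraries on 879, 1004 and 1024.

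The 5969-base cluster followed at 5.56-fold. It had 2.39, 6.02 and 1.73 FPKM at 0 mM, 6.72, 10.71 and 10.76 FPKM at 100 mM, and 11.01, 21.57 and 23.75 FPKM at 400 mM. Its first 400 mM library lay just above libraries 2 and 3 of 100 mM, and the other two at 400 mM were far above it. The 1066-base cluster was 5.05-fold higher and reached the highest level among these 5, with a mean of 103 FPKM ± 24.5 at 400 mM and of 20.5 FPKM ± 6.91 at 0 mM (SD over 3 libraries). Its libraries held 13.54, 20.6 and 27.35 FPKM at 0 mM, 34.65, 69.53 and 76.04 FPKM at 100 mM, and 83.61, 130.82 and 96.01 FPKM at 400 mM. At 100 mM its first library stood nearer to the 0 mM libraries than to the other two of its level.

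The 723-base cluster (5.04-fold) had 1.51, 6.78 and 3.86 FPKM at 0 mM, 10.91, 12.49 and 14.28 FPKM at 100 mM, and 14.46, 19.9 and 26.87 FPKM at 400 mM. Its lowest 400 mM and highest 100 mM libraries differed by a factor of 1.01, so the second separation was narrow. The 3518-base cluster (4.2-fold) had 3.64, 0.83 and 2.85 FPKM at 0 mM, 5.85, 5.47 and 4.37 FPKM at 100 mM, and 11.15, 8.79 and 10.81 FPKM at 400 mM. Here the second separation was the widest of the 17, as the lowest 400 mM library was 1.50 times the highest 100 mM library. All 5 of these clusters rose more in log2 terms between 0 and 100 mM than between 100 and 400 mM. This follows from their total ratios, as 0 of the 17 clusters reached 2-fold in the second step.

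A further 7 clusters stood between 2-fold and 4-fold higher at 400 mM than at 0 mM, and 5 of them were shorter than 500 bases. The 2612-base cluster was the strongest, with a mean of 9.10 FPKM ± 2.08 at 400 mM and of 2.30 FPKM ± 0.685 at 0 mM (SD over 3 libraries). Its libraries held 1.53, 2.84 and 2.53 FPKM at 0 mM, 5.52, 5.45 and 5.05 FPKM at 100 mM, and 7.05, 9.04 and 11.21 FPKM at 400 mM. The 100 mM libraries lay close together and were well clear of both neighbouring levels, by factors of 1.78 and 1.28. The 2445-base cluster had 3.4, 3.81 and 3.35 FPKM at 0 mM, 7.22, 4.62 and 5.69 FPKM at 100 mM, and 7.79, 8.98 and 10.02 FPKM at 400 mM. Its first 100 mM library was nearly as high as its first 400 mM library.

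Of the 5 short clusters, those of 242 and 274 bases carried high FPKM on few reads. The 242-base cluster had 17.13, 31.11 and 39.83 FPKM at 0 mM, 49, 45.03 and 53.38 FPKM at 100 mM, and 84.32, 72.02 and 74.83 FPKM at 400 mM. Behind these values stood 5, 9 and 14 read counts at 0 mM, 18, 13 and 16 at 100 mM, and 35, 25 and 28 at 400 mM. Read count, FPKM and library total together imply that the authors divided by a length of 16.3 bases for it. Over the 17 clusters the implied length was shorter than the deposited one by 226 to 249 bases, which matters little for long clusters and much for short ones. The 274-base cluster likewise had an implied length of 36.5 bases and 183 read counts over all 9 libraries. It held 18.79, 13.77 and 14.5 FPKM at 0 mM, 20.69, 22.73 and 25.74 FPKM at 100 mM, and 43.69, 25.96 and 51.61 FPKM at 400 mM, and its second 400 mM library nearly touched the 100 mM level.

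The 409-base cluster was the scarcest in reads, with 96 over all libraries. It had 4, 4 and 6 read counts at 0 mM, 12, 7 and 7 at 100 mM, and 17, 21 and 18 at 400 mM, or 1.55, 2.63 and 5.06 FPKM on average. The 401-base cluster (338 read counts in all) had 5.21, 10.12 and 4.14 FPKM at 0 mM, 11.92, 11.15 and 11.75 FPKM at 100 mM, and 15.04, 20.86 and 13.79 FPKM at 400 mM. One 0 mM library of it came close to the 100 mM level. The 472-base cluster had more reads, 1789 in all, and 22.48, 33.48 and 24.42 FPKM at 0 mM, 37.74, 48.3 and 36.3 FPKM at 100 mM, and 49.65, 72.14 and 55.13 FPKM at 400 mM. Its second library was the highest at every level, and its lowest 400 mM value of 49.65 FPKM lay just above 48.3 FPKM at 100 mM.

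**Figure D2:**
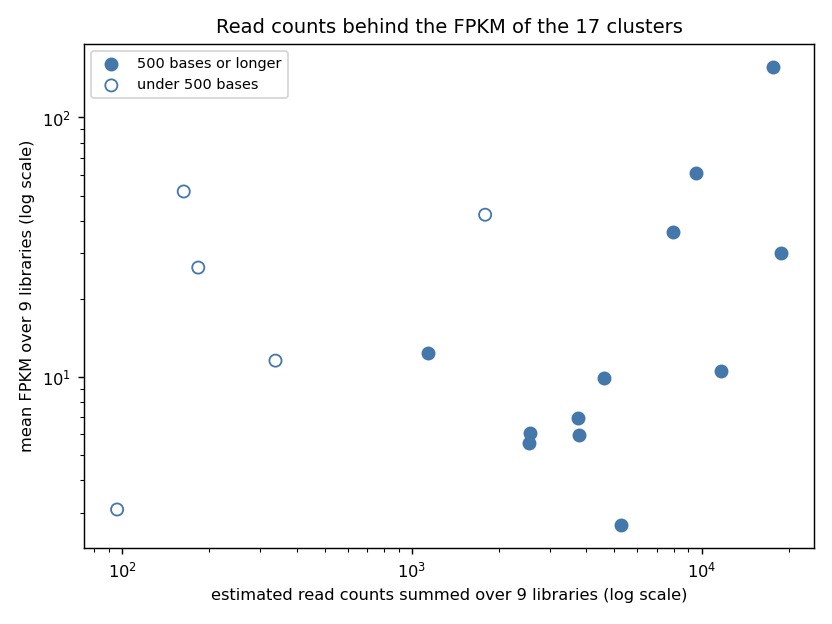
Mean FPKM (vertical axis, log scale) against the read counts summed over 9 libraries (horizontal axis, log scale), one point per cluster, open for the 5 clusters under 500 bases. The 242-base cluster sits at a mean level of 51.9 FPKM on 163 read counts, while the 10672-base cluster sits at 2.68 FPKM on 5249.

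The remaining 5 clusters were under 2-fold higher at 400 mM than at 0 mM, and all 5 rose more in log2 terms in the second step. The rule fixed this in advance, because a total under 2-fold with a second-step log2 ratio of at least 0.5 leaves a smaller first step. Among these 5 clusters was the most abundant of the 17, Cluster-23439.51109, which is 843 bases long. It had 114.25, 121.93 and 110.3 FPKM at 0 mM, 122.39, 152.72 and 136.12 FPKM at 100 mM, and 247.48, 159.02 and 245.85 FPKM at 400 mM. The lowest 100 mM and the highest 0 mM library differed by a factor of 1.004, and the second 400 mM library stood near the 100 mM level, far below the other two. Its 400 mM libraries averaged 217 FPKM ± 50.6 and its 0 mM libraries 115 FPKM ± 5.91 (SD over 3 libraries), a 1.88-fold ratio. At 100 mM it averaged 137 FPKM ± 15.2, and 72.9% of its log2 rise fell in the second step.

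The 3586-base cluster showed the tightest 400 mM libraries, with 21.89, 25.12 and 23.64 FPKM at 0 mM, 26.41, 28.59 and 26.28 FPKM at 100 mM, and 39.06, 39.76 and 40.25 FPKM at 400 mM. It was 1.69-fold higher at 400 mM than at 0 mM, and rested on 18825 read counts, the most of the 17. The 1421-base cluster had 29.49, 29.49 and 29.69 FPKM at 0 mM, 33.33, 31.53 and 31.52 FPKM at 100 mM, and 40.28, 51.9 and 48.49 FPKM at 400 mM. Its first step was the smallest of the 17, a 1.09-fold ratio, and 81.9% of its log2 rise fell above 100 mM.

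The 3107-base cluster had 5.46, 5.58 and 3.77 FPKM at 0 mM, 6.32, 6.02 and 6.76 FPKM at 100 mM, and 9.39, 9.14 and 10.04 FPKM at 400 mM. Its 400 mM libraries lay well apart from the rest, by a factor of 1.35, while 100 and 0 mM nearly met. The longest cluster, of 10672 bases, had 1.4, 2.22 and 2.19 FPKM at 0 mM, 2.23, 2.99 and 2.29 FPKM at 100 mM, and 3.15, 4.14 and 3.52 FPKM at 400 mM. Libraries 2 and 3 of 0 mM nearly met the first 100 mM library.

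The size of the first step varied more among the 17 clusters than that of the second. The log2 ratio of 100 mM to 0 mM ran from 0.12 to 2.50 with a median of 0.74, and that of 400 mM to 100 mM from 0.51 to 0.999 with a median of 0.67. The lower end of the second range was set by the rule. The first step was the larger on the log2 scale in 10 clusters and the second in 7. In FPKM, 14 clusters gained more between 100 and 400 mM than between 0 and 100 mM. The rule set a lowest ratio for the second step and only a separation for the first, which favoured a larger second step in these counts. Counted per 100 mM of NaCl, 14 clusters gained more FPKM below 100 mM and 3 gained more above it. These last were the 843-base, 3586-base and 1421-base clusters, named after their values were seen. For instance, the 1421-base cluster gained 2.57 FPKM up to 100 mM and 4.92 FPKM per 100 mM above it.

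**Figure D3:**
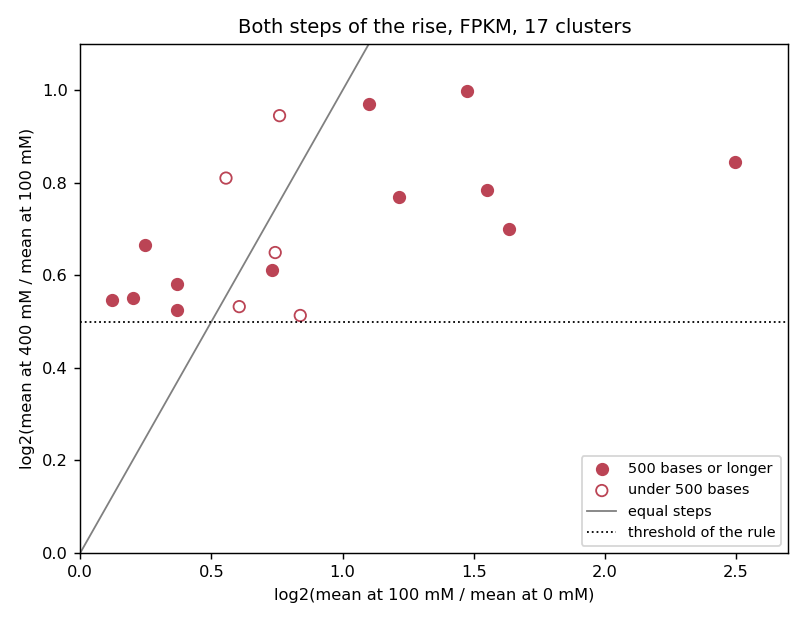
Log2 ratio of the mean FPKM at 400 mM to that at 100 mM (vertical axis) against the log2 ratio at 100 mM to 0 mM (horizontal axis), one point per cluster, open for those under 500 bases. The grey line marks equal steps and the dotted line the threshold of 0.5; 10 clusters lie to the right of the grey line and 7 to its left.

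Just inside the threshold of the second step were the 401-base cluster, at a log2 ratio of 0.51, and the 10672-base cluster, at 0.53. Just outside were clusters of 2643 and 1029 bases, at 0.49 and 0.47. The 2643-base cluster had means of 20.2, 34.8 and 48.7 FPKM and the 1029-base cluster 3.08, 5.92 and 8.19 FPKM at 0, 100 and 400 mM. Their total rises, 1.27 and 1.41 on the log2 scale, were of the size of the median of the 17 (1.37). The 22 clusters left out by this threshold had a median total log2 rise of 0.63.

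Separation between levels was often narrow in relation to counting error. The lowest 100 mM library exceeded the highest 0 mM library by a median factor of 1.12 (range 1.004 to 1.83), and by under 1.1 in 6 clusters. The lowest 400 mM library exceeded the highest 100 mM library by a median factor of 1.16 (range 1.01 to 1.50), and by under 1.1 in 8 clusters. When each of these libraries was given an exact 95% Poisson interval on its read count, the intervals were apart in 4 clusters at the first step and in 6 at the second. They were apart at both steps in the 2622-base and 2612-base clusters, and at neither in 9 clusters. Such intervals cover counting error only. In 3 clusters, of 409, 242 and 274 bases, some library had fewer than 10 read counts.

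Spread within a level was lower in the 17 clusters than in the table at both salt levels, which the rule favours. The coefficient of variation over 3 libraries had a median of 24.0% at 0 mM, 13.4% at 100 mM and 16.0% at 400 mM. Over the table the medians were 24.8%, 26.2% and 27.6% in the same order. Within levels, pairs of clusters deviated in like and in opposite directions. Over 136 pairs, of which 80 were positive, the correlation of log2 FPKM after removal of level means had a median of 0.11 (range -0.87 to 0.92), over the same 9 libraries.

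Median levels per library were apart at both steps, which the choice of the clusters required. Relative to the 0 mM mean of each cluster, the median log2 level of the 17 was -0.25, 0.11 and 0.01 in the 0 mM libraries. It was 0.76, 0.63 and 0.71 in the 100 mM libraries and 1.48, 1.43 and 1.51 in the 400 mM libraries. The whole table went slightly down, with medians of 0.02, 0.00 and -0.05 at 0 mM, -0.15, -0.25 and -0.31 at 100 mM, and -0.12, -0.15 and -0.25 at 400 mM. Although library 1 of 400 mM was the lowest of its level in most of the 17 clusters, its median of 1.48 lay between those of the other two. Set against the mean of its own level, however, its median log2 deviation over the 17 was -0.17, while libraries 2 and 3 were at 0.01 and 0.05.

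**Figure D4:**
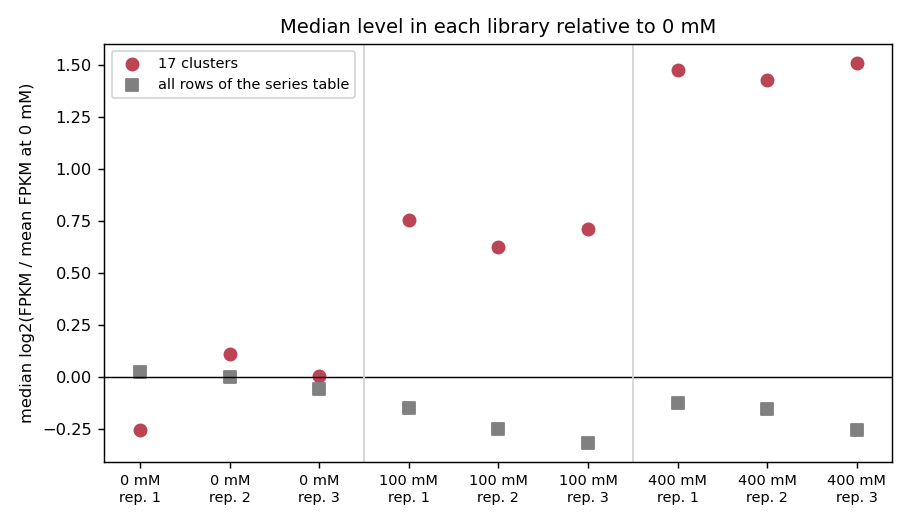
Median over clusters of log2(FPKM / mean FPKM at 0 mM) in each of the 9 libraries (horizontal axis), as circles for the 17 clusters and squares for all 31628 clusters of the table. The circles sit near 0 at 0 mM, between 0.63 and 0.76 at 100 mM and between 1.43 and 1.51 at 400 mM, while the squares lie between -0.12 and -0.31 at both salt levels. The choice required the circles to rise at both steps.

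A count test over all clusters did not call any of the 17. In edgeR's quasi-likelihood fit of 56832 clusters, all 17 were tested and 0 passed an adjusted p under 0.05 in 400 mM against 0 mM, where 0% of all clusters were called higher. Their adjusted p-values by edgeR ran from 0.115 to 0.292. In 100 mM against 0 mM, 0 of the 17 and 0.424% of all clusters were called higher, with edgeR adjusted p-values from 0.0791 to 0.553. In 400 mM against 100 mM, 0 of the 17 and 0% of all clusters were called higher, with edgeR adjusted p-values from 0.576 to 0.935. At an unadjusted p under 0.05 by the same edgeR test, 17, 14 and 6 of the 17 were higher in these comparisons, where 8.13%, 8.9% and 3.63% of all clusters were. Those counts follow from the choice of the clusters.

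Calls depended on the tool. DESeq2 called 14 of the 17 higher in 400 mM against 0 mM (3.9% of all clusters), 9 in 100 mM against 0 mM (5.28%) and 1 in 400 mM against 100 mM (0.79%). Limma on log2(FPKM + 1) called 3 (0.181%), 1 (1.58%) and 0 (0%) in the same comparisons, and on log2(FPKM + 0.1) 0 in each, where 0.121%, 1.22% and 0.0123% of all clusters were called. The newer adjusted deviances of edgeR called 0 in each, where 0.037%, 1.42% and 0% of all clusters were called higher. Without library 1 of 100 and of 400 mM together, edgeR called 3 (0.65%), 1 (1.25%) and 0 (0.00166%). All 17 had a positive fitted log2 fold change in every comparison and under every scaling, which their choice favoured. Library size alone moved the median of all clusters by -0.19 at 400 mM and -0.25 at 100 mM relative to TMM.

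Membership depended on how libraries were scaled. When CPM (counts scaled to library size with TMM factors) replaced FPKM, 19 clusters of the table met the rule and 7 of them were among the 17. The separation of 100 mM from 0 mM held in all 17 under that scaling, which favoured it. The TMM factors were higher in every 0 mM library than in any 100 mM library, and so raised 100 mM against 0 mM. Whether the first step is firmer than the second therefore cannot be read from this scaling. The separation of 400 mM from 100 mM was lost in 7, and the second-step ratio fell under 0.5 in 5. TMM worked against this step, as library size alone moved the median log2 ratio of all clusters by 0.06 relative to TMM in 400 mM against 100 mM. The clusters that kept the whole rule with TMM factors were the 2622-base, 3518-base, 2612-base, 409-base, 242-base, 2445-base and 3107-base ones, picked out after their values were seen. Cluster-23439.62881 was thus kept and Cluster-23439.51109 was not. With library size as the only scaling of counts, 18 clusters met the rule, 15 of them among the 17. The 242-base and 274-base clusters lost a separation under it, and the 242-base cluster thus kept its place with TMM factors but not without them. With the same length in every library this scaling would keep the FPKM order, so their separation in FPKM depended on implied lengths that differed between libraries. Applied to all 126059 clusters of the library tables, the rule held in 50 (0.0397%).

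Libraries that took no part in a choice gave the stepwise order more often than the table, but in a minority of the chosen clusters. When the rule was applied to libraries 2 and 3 of each level, 258 clusters were chosen. In the 3 libraries left out, 97 of them (37.6%) had 0 mM below 100 mM below 400 mM, beside 12.4% of all clusters of the table. With libraries 2 left out, 76 of 214 chosen clusters (35.5%) kept the order, beside 12.3% of the table. With libraries 3 left out, 37 of 94 (39.4%) kept it, beside 17.3%. The replicate numbers only mark which libraries were left out and are not stated to pair plants.

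The size of the rise was smaller in the left-out libraries than in those that chose. For 400 mM against 0 mM, the median log2 ratio in the left-out libraries was 0.76, 0.52 and 0.92 when libraries 1, 2 and 3 were left out, while the choosing libraries gave 1.59, 1.46 and 1.62. Over the whole table the left-out libraries gave -0.13, -0.12 and -0.16. The left-out 400 mM library was higher than the left-out 0 mM library in 79.8%, 78.0% and 73.4% of chosen clusters, and in 42.2%, 43.2% and 42.6% of the table. For the second step alone, 400 mM against 100 mM, the left-out medians were 0.26, 0.34 and 0.58 beside 0.70, 0.68 and 0.81 in the choosing libraries. The left-out 400 mM library then exceeded the 100 mM library in 60.5%, 70.1% and 70.2% of chosen clusters, beside 50.6%, 55.5% and 54.3% of the table.

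For comparison, the course that peaked at 100 mM held up more often than any other order. Of the clusters with 0 mM below 400 mM below 100 mM in 6 libraries, 58.2%, 60.1% and 55.3% had that order in the left-out libraries 1, 2 and 3, beside 14.1%, 13.9% and 13.8% of the table. By order alone, without the further conditions of the rule, the stepwise rise gave 32.6%, 31.4% and 42.5%. The remaining orders gave from 23.7% (beside 8.38% of the table) to 47.0% (beside 26.2%), so the stepwise rise lay within their range. The difference between the stepwise rise and the peak at 100 mM was not tested.

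**Figure D5:**
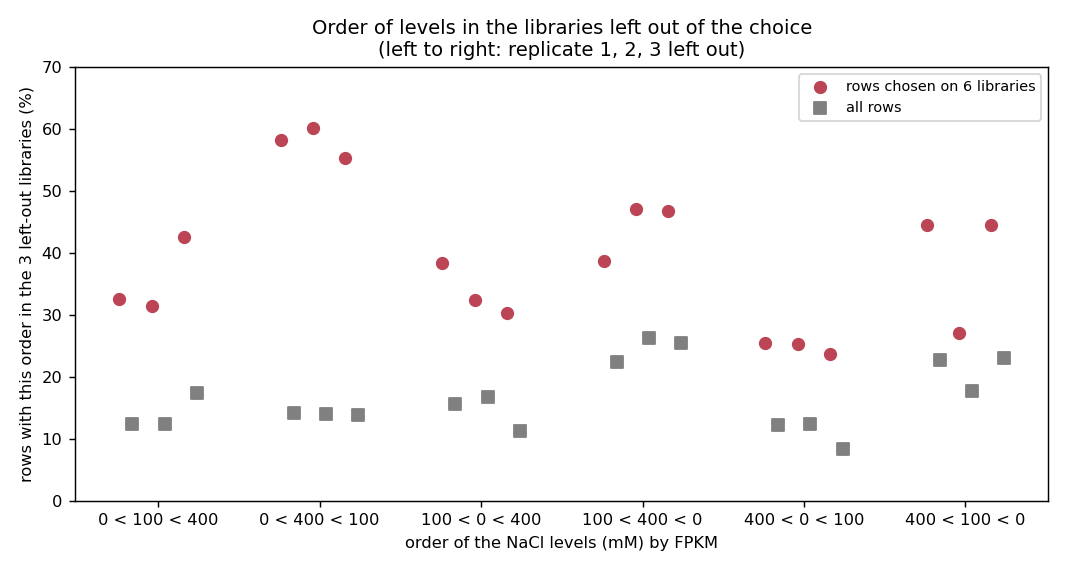
Share of clusters (vertical axis, percent) that showed a given order of the 3 NaCl levels (horizontal axis) in the 3 libraries left out, for clusters with that order in the other 6 libraries (circles) and for all clusters of the table (squares). Within each order the points are for libraries 1, 2 and 3 left out; the stepwise rise, at the left, gave 31.4% to 42.5%, and the order with the peak at 100 mM 55.3% to 60.1%.

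A single library set much of the count. Without library 1 of 400 mM, 119 clusters met the rule, and in 18 of these (15.1%) that library lay above all 100 mM libraries, as it did in 33.5% of the table. Without library 2 of 0 mM, 75 clusters met the rule, and in 17 (22.7%) that library lay below all 100 mM libraries, beside 20.1% of the table. Leaving out another library gave between 23 and 47 clusters. For library 3 of 400 mM the left-out value was in its place in 78.3% of 23 chosen clusters, beside 25.5% of the table.

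By length, both ends were well filled. The 17 clusters had a median length of 1421 bases (range 242 to 10672), and the table had 1476. Clusters under 500 bases made up 29.4% of the 17 and 8.98% of the table, and those of 2000 bases or more 47.1% and 31.7%. By abundance, 9 of the 17 stood under 5 FPKM at 0 mM, 2 between 5 and 20 and 6 at 20 or more. The median level at 0 mM was 4.94 FPKM in the 17 clusters and 6.34 FPKM in the table. At 400 mM the medians were 18.8 and 5.88 FPKM, the first of which the rule helped to set. All 17 names carry the number 23439 before the point, as do 99.3% of the names in the table.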

How the data were processed

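RNA-seq of Nitraria sibirica leaves was deposited as 9 library tables of 126059 clusters with estimated read counts and FPKM, per the file headers. The deposited FPKM values were scaled to cluster length and library size by the authors. A table of 31628 clusters repeats the FPKM with cluster lengths, and it holds exactly the clusters over 0.3 FPKM in all 9 libraries. Per the submitters' processing notes, the tools included Bowtie2 2.0.6 and TopHat2 2.0.9, with no role named. For the assembler, counter and strand setting, nothing is given in the sources used here. Between 38.5% and 42.5% of clusters per library have a fractional count, so reads of near-identical clusters may have been divided, and a cluster may not be a gene.

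The deposited estimated counts were rounded to whole numbers and fitted with edgeR 4.0.16 in R 4.3.3 (quasi-likelihood test, TMM, filterByExpr, 3 groups, 6 residual degrees of freedom, Benjamini-Hochberg adjustment over 56832 clusters). DESeq2 1.42.0 and limma 3.58.1 were alternatives. All 9 libraries entered every main value. The clusters and the rules for naming them were chosen with earlier results of these data known. Named were the cluster with the highest 400 mM to 0 mM ratio among those with at least 1 FPKM at 0 mM, and the one with the highest mean. Gene lists and cell type markers were not used, as names are not paired with genes.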

Additional observations from a re-analysis of the deposited data

How the results depend on the processing

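The clusters that met the rule numbered 17. There were 50 over all clusters of the library tables, 27 with a second step of at least 0.25 and 0 with one of at least 1. Leaving out 1 library or 1 replicate number gave 23 to 258, and by construction fewer libraries ease the rule. Without library 1 of 100 and 400 mM together there were 212. Requiring counting intervals apart at both steps left 2. These last settings, edgeR's newer adjusted deviances and the exclusion of implied lengths under 200 bases were chosen after seeing the data. Higher calls among the 17 were 0 in each comparison with edgeR. In 400 mM against 0 mM they were 14 with DESeq2, 3 with limma on log2(FPKM + 1), 1 with the replicate block and 3 without library 1 of both salt levels. In 100 mM against 0 mM they were 9, 1, 1 and 1 in the same order. In 400 mM against 100 mM DESeq2 called 1. Leaving out any single library left these edgeR counts at 0, but most of those fits called few clusters at all. Without library 1 of 400 mM, 109 of 62330 clusters were called higher in 400 mM against 0 mM and 574 in 100 mM against 0 mM. Without library 3 of 400 mM, 138 of 62687 were called higher in 100 mM against 0 mM. Every other such comparison called 5 clusters or fewer. The cause of these differences was not tested. With the replicate block 0.144%, 0.966% and 0% of all clusters were called higher in 400 mM against 0 mM, 100 mM against 0 mM and 400 mM against 100 mM. The numbers were not taken as a pairing, since they are not stated to mark a shared plant, batch or day. Same-numbered deviations correlated at -0.01 to 0.17 (mean 0.04) and differently numbered ones at -0.11 to 0.06 (mean -0.02). The highest value joined library 1 of 100 and of 400 mM. Whether same-numbered libraries shared a batch was not tested. The median log2 ratio of 400 mM to 0 mM was 1.37, 1.53 with TMM-scaled CPM, 1.25 with a pseudocount of 1, 1.42 without library 1 of both salt levels, and 1.31 to 1.44 without single libraries. For 100 mM against 0 mM it was 0.74, 0.97, 0.60, 0.66, and 0.66 to 0.86 in the same order. For 400 mM against 100 mM it was 0.67, and 0.59 to 0.70 without single libraries. No direction turned under these settings, but wherever the FPKM scaling was kept the choice of the clusters fixed this in advance. The TMM factors, higher in every 0 mM library than in any salt library, also favoured a rise from 0 mM. Depth limits the 4 clusters with under 500 read counts in all. Narrow separations also occurred in clusters with many reads, such as the 843-base cluster, with 17588 read counts and a first separation by a factor of 1.004. Whether depth set the narrow separations was not tested.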

Other observations

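Outside the table of 31628 clusters, 94431 clusters had an FPKM of 0.3 or less in at least 1 library. Of these, 36 were separated in the stepwise order and 33 met the whole rule. Their levels were low, with a median of 0.0933 FPKM at 0 mM, 0.537 at 100 mM and 1.33 at 400 mM, and the highest mean at 400 mM was 11.9 FPKM. They rested on 12 to 2051 read counts over all libraries, with a median of 119. In 9 of them every 0 mM library had 0 counts.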
